A study of Mus musculus with 10 samples.

Results

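The comparison described here sets mouse embryonic stem (ES) cells that lack both Tet1 and Tet2 (DKO) against wild-type (WT) ES cells. It rests on the arrays whose titles name a DKO line against a WT line, which are 6 of the 10 arrays of the series. The 6 arrays hold 4 pairs of lines: DKO 51 with WT 6 and DKO 61 with WT 92, both male, and DKO 60 with WT 7 and DKO 59 with WT 94, both female. Pairs 51/6 and 59/94 were hybridised on 2 arrays each and the other pairs on 1 array each. All lines are of a mixed C57/BL/6 background, and both genotypes were grown in medium with LIF on irradiated feeder cells, from which they were parted by preplating before the extraction of RNA. The knockout is constitutive in each line, no further agent was applied, and the age of the cultures is not given in the sources used here. Each pair is a single DKO line against a single WT line, so a gene that differs in a pair may differ between lines for reasons other than genotype. DKO RNA was always in the red Cy5 dye and WT RNA always in the green Cy3 dye, so a dye bias of a probe and an effect of genotype cannot be told apart within these arrays. The male arrays lay on 1 slide and the female arrays on another. A pair of male single-knockout lines on 2 further arrays is set beside this comparison. It holds T2KO 16, which lacks Tet2, in Cy5 and T1KO 65, which lacks Tet1, in Cy3.

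The Tet genes encode enzymes that convert methylated cytosine in DNA to hydroxymethylcytosine and further oxidised bases, which are then diluted at replication or cut out by base excision repair. Mouse ES cells express Tet1 and Tet2 strongly and Tet3 weakly. Germline gene promoters are a known class that cytosine methylation keeps silent. The comparison asks which transcripts differ when both of the main ES cell enzymes are missing.

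Values are log2 ratios of DKO over WT, where 1 is a doubling, and levels are log2 normalised signals of a line. Lines were compared by their levels at a given probe. Across probes, levels served to sort genes into classes of brightness and to choose the brightest probe of a gene. On the 6 arrays, 55.2% to 61.5% of gene spots were well above background in the WT channel and 64.4% to 69.0% in the DKO channel, and no spot was saturated. Across genes, the ratios of repeat arrays correlated at r = 0.955 for pair 51/6 and r = 0.924 for pair 59/94, while those of different pairs correlated at 0.195 to 0.476, which describes these arrays, since genes are not replicates. All 8 fixed ES cell markers, Pou5f1, Sox2 and Nanog among them, were above background on all arrays, with WT levels from 12.4 to 17.4 and DKO levels from 12.4 to 18.1, and 0 of the 8 passed the test. All 8 fixed feeder fibroblast markers, the collagen genes Col1a1 and Col1a2 among them, were also above background on all arrays, with line medians of 10.3 to 11.3 in WT and 10.6 to 11.6 in DKO. Their median ratio was 0.98 in pair 60/7, -0.52 in pair 61/92, -0.05 in pair 51/6 and -0.03 in pair 59/94. Fewer cells of a type and less RNA per cell cannot be told apart in these samples. The Y-linked Ddx3y lay at 7.19 in DKO 51, 8.77 in WT 6, 9.67 in DKO 61 and 8.44 in WT 92, against 6.61 to 6.92 in the 4 female lines.

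The targeted genes were examined first. Tet1 (probe on chromosome 10, 62274448 to 62274507, build mm9) had levels of 13.12, 12.79, 12.77 and 12.81 in WT 6, 92, 7 and 94 and of 11.07, 10.82, 10.66 and 10.51 in DKO 51, 61, 60 and 59. Every DKO line lay below every WT line. The mean log2 ratio was -2.11 (SE 0.08, n = 4 pairs; limma adjusted p = 0.0070). Tet2 (chromosome 3, 133126751 to 133126810) had levels of 12.05, 11.51, 11.94 and 11.78 in the WT lines and of 9.77, 10.11, 9.60 and 9.40 in the DKO lines, in the same order. The groups did not overlap, and the fall was smallest in pair 61/92, at -1.39 against -2.28, -2.35 and -2.37 in the others. Its mean ratio was -2.10 (SE 0.19, limma adjusted p = 0.0216). The other tested probes of Tet1 had mean ratios of -1.43 and -1.97, and those of Tet2 had -1.91 and 0.18, so the probes of Tet2 disagree. Whether the tested probes lie inside the deleted part is not given in the sources used here. Tet3 (chromosome 6) lay between 8.49 and 8.74 in all 8 lines, with overlapping groups and a mean ratio of 0.05 (SE 0.07, limma adjusted p = 0.658), and its sign turned with the scanner software's own ratios (-0.056).

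**Figure D1:**
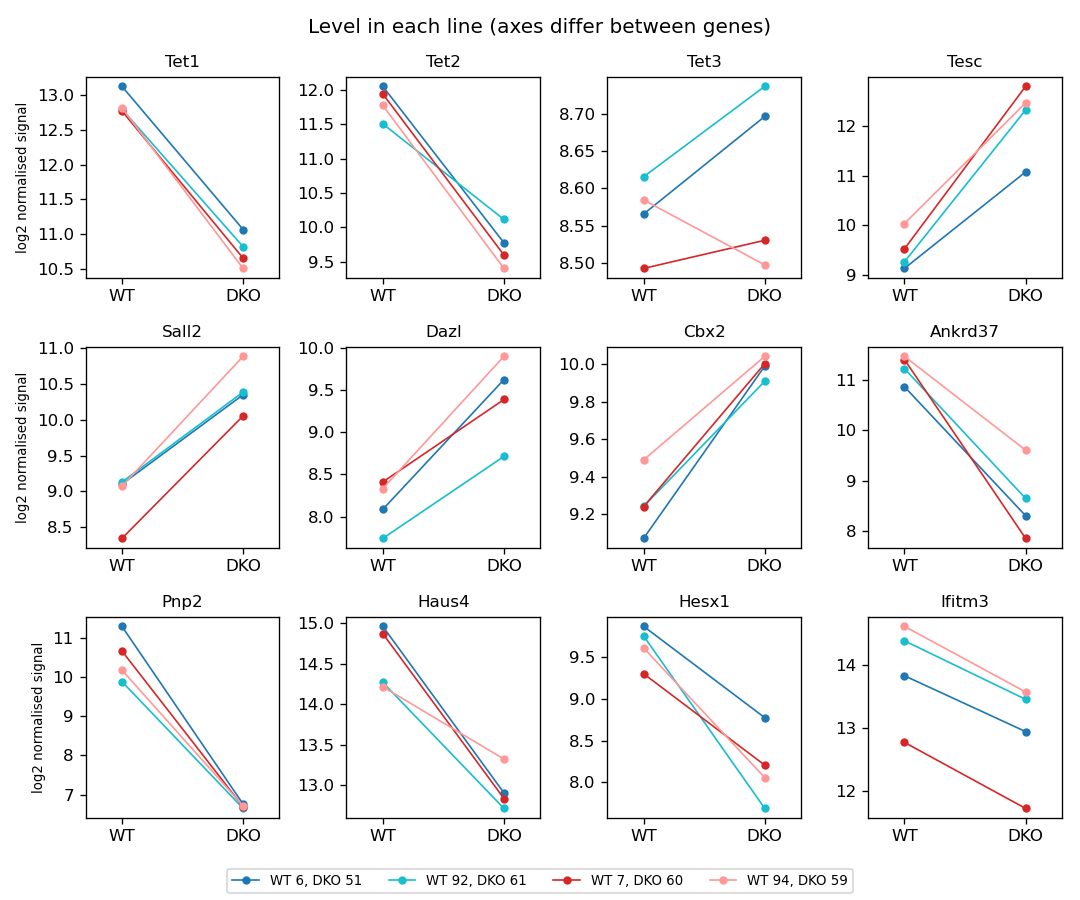
Level (log2 normalised signal, a separate scale for each gene) of 12 genes in each WT line and in the DKO line hybridised with it, with a line joining the pair. Tet1 and Tet2 fall in all 4 pairs and Tet3 stays between 8.49 and 8.74, while for Ifitm3 the lines of a pair differ alike although the lines overlap across pairs.

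Of 20447 genes tested, 950 passed the threshold (limma, Benjamini-Hochberg adjusted p under 0.05), which is 4.65% of them. Of these, 599 (2.93%) were higher and 351 (1.72%) lower in DKO. Most changes were small: the median log2 ratio was 0.55 among the genes that rose and -0.49 among those that fell, 63 genes rose by more than 1 and 14 fell by more than 1. The calls rest on all 4 pairs together. With pair 51/6, 61/92, 60/7 or 59/94 left out, 0 genes passed in limma in each case, with 4829, 4091, 4640 and 3581 genes at an unadjusted p under 0.05. All 950 genes kept their sign and such a p in each of those fits. Since the 950 were chosen on these same pairs, this is no independent check of them. With the slide as a block 0 genes passed (smallest adjusted p = 0.0525, 5216 genes at an unadjusted p under 0.05), and with a variance prior that follows intensity 0 passed (smallest adjusted p = 0.0557, 5440 genes).

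The pairs differed in how many genes moved. A change of more than 2-fold was seen in 508 genes in pair 51/6, 348 in pair 61/92, 913 in pair 60/7 and 229 in pair 59/94. In all 4 pairs, 21 genes were more than 2-fold higher, of which 15 were above background on no WT array, and 6 were more than 2-fold lower. The 6 were Ankrd37, Hesx1, Pnp2, Tet1, Tet2 and 1 probe without a gene symbol.

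**Figure D2:**
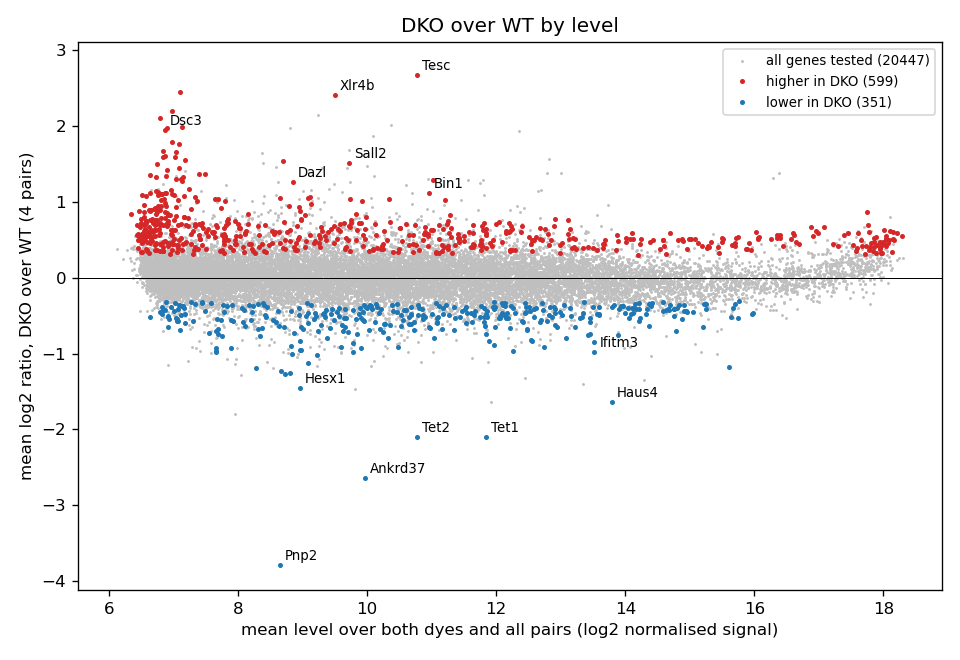
Mean log2 ratio of DKO over WT over the 4 pairs (vertical axis) against the mean level (horizontal axis, log2 normalised signal) for the 20447 genes tested. Red points mark the 599 genes that were higher and blue points the 351 that were lower. The red points gather at the dim and the bright end of the axis.

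The calls were not spread evenly over the levels. In the dimmest of 4 equal classes of genes 205 were higher and 33 lower, in the second 110 and 78, in the third 116 and 110, and in the brightest 168 and 130. Among the 807 genes with a mean level above 16, 69 were higher and 0 lower. In the pair of T2KO 16 in Cy5 against T1KO 65 in Cy3, which was labelled in the same orientation, 68 of those 69 genes had a positive ratio as well. Among them were Rn18s, the 18S ribosomal RNA, at 0.87 (SE 0.05, limma adjusted p = 0.0216) with 0.83 to 0.92 in the 4 pairs, and Sp110, a nuclear body protein, at 0.66, whose other tested probes gave -0.18 and -0.33. The part of the dye in these rises was not tested.

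The genes that rose and could be measured on both sides were led by Tesc, which encodes tescalcin, a calcium-binding protein. Tesc (chromosome 5, 118511820 to 118511879, mm9) had levels of 9.13, 9.26, 9.52 and 10.03 in WT 6, 92, 7 and 94 and of 11.07, 12.32, 12.79 and 12.46 in DKO 51, 61, 60 and 59. All DKO lines lay above all WT lines, and DKO 51 was the lowest of them. The mean ratio was 2.67 (SE 0.24, limma adjusted p = 0.0216), a 6.37-fold rise. Sall2, a zinc-finger transcription factor (chromosome 14), had levels of 9.10, 9.13, 8.34 and 9.07 in the WT lines and of 10.35, 10.39, 10.06 and 10.89 in the DKO lines. The groups did not overlap, and the mean ratio was 1.51 (SE 0.13, limma adjusted p = 0.0216). Osta, a subunit of a steroid and bile acid transporter, rose by 1.54 on average, with 2.10, 1.12, 1.21 and 1.76 in pairs 51/6, 61/92, 60/7 and 59/94.

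The other genes among the 12 largest rises fall into several functions. Bin1, a membrane-bending adaptor, had ratios of 1.01 to 1.31 in the 4 pairs, the highest in pair 51/6, and a mean of 1.12 (SE 0.07, the smallest of the 12, limma adjusted p = 0.0216). Hrk, a pro-apoptotic member of the BCL2 family, rose by 1.06, with the largest value, 1.51, in pair 61/92. The probe of Hrk (chromosome 5, from 118639423, mm9) lies near that of Tesc (from 118511820). Kirrel, a cell adhesion protein, rose by 1.04 at its tested probe and had 0.47 and 0.21 at its other probes. Rftn1, a lipid raft protein, rose by 1.02, and its probe (chromosome 17, from 50132632) lies near that of Dazl, described below (from 50418923). The part of such nearness in these rises was not tested. Trmt2b, a mitochondrial tRNA methyltransferase, and Tmem164, a transmembrane protein, are both X-linked and rose by 1.04 and 1.02, while the other tested probe of Trmt2b had 0.48. The median ratio of all 838 tested X-linked genes was -0.01 in pair 51/6, 0.19 in pair 61/92, 0.42 in pair 60/7 and 0.13 in pair 59/94, and its part in the rises of X-linked genes was not tested. In 10 of the 12 genes every DKO line lay above every WT line, the exceptions being Kirrel and Fmr1nb.

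Germ cell genes were among the rises. Dazl, an RNA-binding protein needed for germ cell development (chromosome 17, 50418923 to 50418982, mm9), had levels of 8.09, 7.74, 8.41 and 8.33 in WT 6, 92, 7 and 94 and of 9.63, 8.71, 9.39 and 9.90 in DKO 51, 61, 60 and 59. The groups did not overlap, and the mean ratio was 1.27 (SE 0.14, limma adjusted p = 0.0218). Fmr1nb, an X-linked cancer/testis gene, had ratios of 0.70, 2.03, 0.94 and 1.47 with overlapping lines, and a mean of 1.28 (SE 0.23, limma adjusted p = 0.0496). Mov10l1, an RNA helicase of the piRNA pathway, rose by 0.66 (SE 0.11, limma adjusted p = 0.0442). With normexp fitted on all spots, Fmr1nb and Mov10l1 did not pass (limma adjusted p = 0.0653 and 0.0804). Nor did they with the scanner's log ratios (limma adjusted p = 0.0607 and 0.0747). Dazl passed in both (limma adjusted p = 0.0451 and 0.0248). Of the 49 germ cell and meiosis genes tested, 3 rose and 0 fell, beside 2.93% of all genes that rose, and 38 had a positive mean ratio. The list's median was 0.20 against 0.02 for all genes tested, with pair medians of 0.16, 0.33, 0.24 and 0.29. Mael, a piRNA pathway protein, had a ratio as large as that of Dazl, at 1.29, but did not pass (limma adjusted p = 0.0748), nor did Ddx4, a germ granule helicase, at 0.57. In the meiosis group 0 of 17 genes passed.

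The enzymes that were removed act on cytosine where it is methylated, which can be at CpG sites. The promoters of Tesc, the largest rise, and of the 3 germ cell genes that rose are therefore shown. Each is the 250 bases before the annotated start in RefSeq, on GRCm38.p6, read 5′ to 3′ on the strand of the gene, with CpG sites in capitals. The windows are chr5:118027493-118027742 on the plus strand, chr17:50293621-50293870 on the minus strand, chr15:88982744-88982993 on the plus strand and chrX:68761589-68761838 on the plus strand.
Tesc: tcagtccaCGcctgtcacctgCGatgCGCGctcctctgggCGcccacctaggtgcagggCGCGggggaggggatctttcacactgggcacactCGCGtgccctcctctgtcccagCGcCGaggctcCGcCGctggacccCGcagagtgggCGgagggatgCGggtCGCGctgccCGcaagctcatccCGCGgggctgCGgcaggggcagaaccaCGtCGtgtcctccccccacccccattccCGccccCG
Dazl: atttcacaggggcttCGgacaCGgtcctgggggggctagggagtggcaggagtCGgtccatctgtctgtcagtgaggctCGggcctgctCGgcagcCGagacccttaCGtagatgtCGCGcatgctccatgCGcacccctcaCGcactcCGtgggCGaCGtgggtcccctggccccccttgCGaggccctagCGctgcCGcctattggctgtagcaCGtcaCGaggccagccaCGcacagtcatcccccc
Mov10l1: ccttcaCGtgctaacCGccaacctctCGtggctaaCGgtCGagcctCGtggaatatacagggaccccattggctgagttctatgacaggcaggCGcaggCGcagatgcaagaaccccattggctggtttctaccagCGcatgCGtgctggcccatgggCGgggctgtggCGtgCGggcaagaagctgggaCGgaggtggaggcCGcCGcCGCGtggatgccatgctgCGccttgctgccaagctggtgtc
Fmr1nb: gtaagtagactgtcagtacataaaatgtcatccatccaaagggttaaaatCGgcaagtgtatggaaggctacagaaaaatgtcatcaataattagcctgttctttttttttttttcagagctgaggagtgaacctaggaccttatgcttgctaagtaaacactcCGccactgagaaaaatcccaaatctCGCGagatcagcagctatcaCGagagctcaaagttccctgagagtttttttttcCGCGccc
The windows held 26 CpG sites for Tesc, 20 for Dazl, 19 for Mov10l1 and 7 for Fmr1nb. Over the 32851 windows of this length in the table the median was 6 sites, 92.1% held at least 1, and 17.9% held at least as many as Dazl. The motif CG reads the same on both strands, and its count describes the sequence and not its methylation, which was not measured here.

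**Figure D3:**
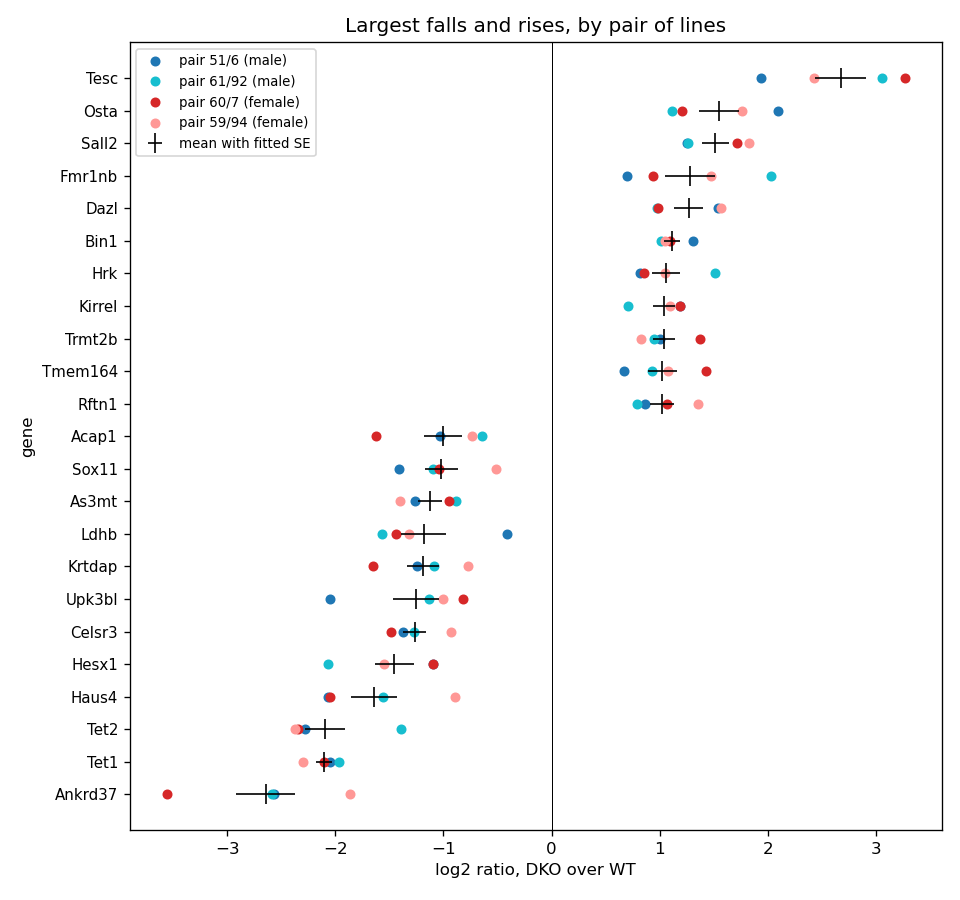
Log2 ratio of DKO over WT in each of the 4 pairs (coloured points) for the 12 largest falls and 11 of the 12 largest rises among genes above background on all arrays, with the mean and its fitted SE in black. Tesc spans 1.94 to 3.27 and Ankrd37 spans -3.56 to -1.87, while the points of Bin1 and Tet1 lie close together.

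A further set of rises came from probes that were dim in WT. Of the 599 genes that rose, 391 were above background on all WT arrays, 59 on some and 149 on none. For 130 of them the signal was above background on all DKO arrays and on no WT array. Among the genes that fell, none with a symbol showed the reverse. The 130 genes entered the test only through their DKO signal. On each array more spots were above background in the DKO channel (64.4% to 69.0%) than in the WT channel (55.2% to 61.5%). Of all 20447 genes tested, 1042 were above background on no WT array. The part of the channel in this asymmetry was not tested. The folds of the 130 genes are bounds, taken against the lowest signal above background on each WT array. Dsc3, a desmosomal cadherin (chromosome 18, 20124142 to 20124201, mm9), had levels of 5.90, 5.95, 5.91 and 5.81 in WT 6, 92, 7 and 94 and of 7.92, 7.77, 7.81 and 7.86 in DKO 51, 61, 60 and 59. It was at least 2.41-fold higher in DKO (limma adjusted p = 0.0070). Sult1d1, a sulfotransferase, was at least 2.60-fold higher, Krt78, a keratin, at least 2.46-fold, Gm10729 at least 2.43-fold, Gm10896 at least 2.35-fold and 6330576A10Rik at least 2.05-fold. A second probe of Dsc3, Krt78, Sult1d1, Gm10896 and Olfr1294, an olfactory receptor, was above background in neither channel and had a mean ratio of -0.07, -0.19, 0.05, -0.14 and -0.06. Vmn1r236, a vomeronasal receptor gene with 3 of 4 pairs measured (pair 60/7 is missing), had levels of 8.48, 8.08 and 8.52 in DKO 51, 61 and 59 and of 5.89, 5.84 and 6.02 in WT 6, 92 and 94, where it was not well above background. Its size is not fixed by these data: the fitted ratio of 2.45 became 1.41 in the authors' value table and 4.67 with the scanner's log ratios.

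The dim rises moved in the same direction in the single-knockout pair, which carries the same dye orientation but other genotypes. Of the 149 genes above background on no WT array, 144 had a positive ratio of T2KO over T1KO (96.6%), with a median of 0.61. Of the 391 above background on all WT arrays, 243 did (62.1%), with a median of 0.21. Among the 351 genes that fell, 177 had a positive ratio (50.4%), and the median was 0.00. Among all genes tested, 51.7% had a positive ratio, and among the 1042 tested genes above background on no WT array 715 did (68.6%), with a median of 0.10. Among the 16538 genes above background on all arrays the share was 50.1%. Dsc3 had 1.14, Sult1d1 1.87 and Gm10729 1.94 in that pair. Since the dye was not swapped, a dye bias and an effect of the knockout cannot be told apart here.

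The largest changes among genes measured on both sides went either way in that pair. Among the 12 largest rises, 5 had a positive and 7 a negative ratio of T2KO over T1KO. Sall2 had -2.21, Kirrel -1.79, Bin1 -1.74 and Tmem164 -1.21, while Tesc had 2.03, Fmr1nb 1.49 and Dazl 0.99. Among the 12 largest falls, 9 had a positive ratio, with 2.08 for Hesx1, 1.99 for Tet1 and 1.27 for Haus4, and Tet2 had -1.69. That pair is 1 pair of lines and carries no test here.

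**Figure D4:**
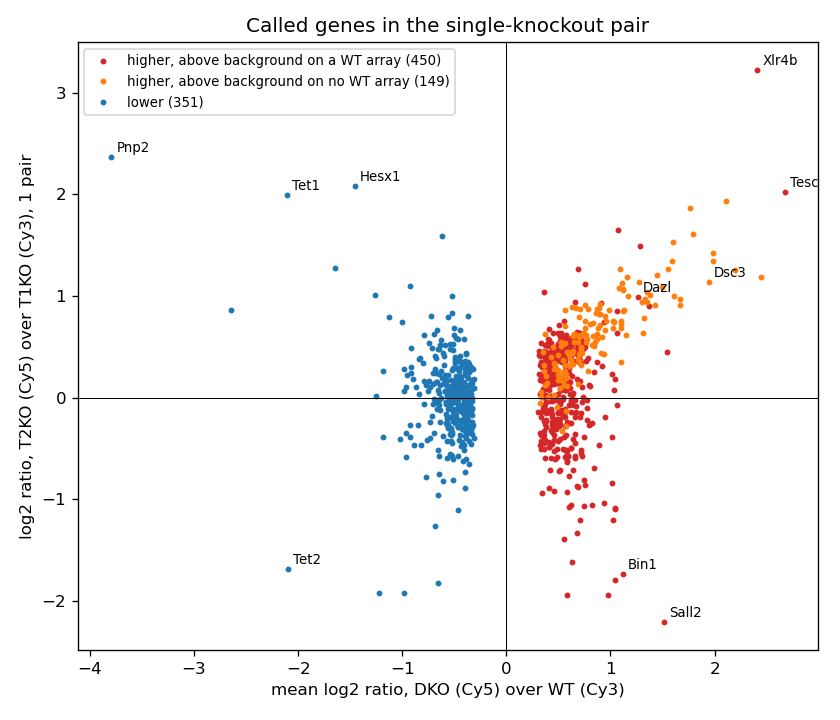
Log2 ratio of T2KO over T1KO in 1 pair of lines (vertical axis) against the mean log2 ratio of DKO over WT (horizontal axis) for the 950 genes that passed, with Cy5 over Cy3 on both axes. Genes above background on no WT array (orange) lie above 0 in 144 of 149 cases, while the genes that fell (blue) lie on both sides of 0.

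The falls were led by Pnp2, a purine nucleoside phosphorylase (chromosome 14, 51584365 to 51584424, mm9). Its levels were 11.29, 9.88, 10.66 and 10.17 in WT 6, 92, 7 and 94 and 6.76, 6.65, 6.69 and 6.72 in DKO 51, 61, 60 and 59, where it was above background on 5 of 6 arrays. The DKO lines lay close together near background and the WT lines were spread. The mean ratio was -3.79 (SE 0.23, limma adjusted p = 0.0216), and its size depends on how background is treated, since it was -3.38 with normexp fitted on all spots and -5.39 with the scanner's log ratios. Its near-identical neighbour Pnp, the purine nucleoside phosphorylase of the same pathway, fell to a mean ratio of -0.85, and signal can be shared between the copies. Ankrd37, a hypoxia-inducible ankyrin repeat protein, had levels of 10.87, 11.23, 11.41 and 11.47 in the WT lines and of 8.30, 8.64, 7.85 and 9.60 in the DKO lines. The groups did not overlap, and the mean ratio was -2.64 (SE 0.27, limma adjusted p = 0.0218). Of the 30 hypoxia response genes tested it alone passed, beside 4.65% of all genes, and that list had a median of -0.03.

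Among genes above background on all arrays, Tet1 and Tet2 followed, and then Haus4, which belongs to the augmin complex that acts on spindle microtubules. Haus4 (chromosome 14, 55160634 to 55160693, mm9) had ratios of -2.07, -1.56, -2.05 and -0.90 in pairs 51/6, 61/92, 60/7 and 59/94. All DKO lines lay below all WT lines, and the mean was -1.64 (SE 0.21, limma adjusted p = 0.0285). Upk3bl, a uroplakin-like protein, had -1.25, and Krtdap, a keratinocyte differentiation protein, had -1.19. Ldhb, a subunit of lactate dehydrogenase, had -0.41 in pair 51/6 and -1.57, -1.44 and -1.32 in the other pairs. As3mt, an arsenic methyltransferase, had -1.12, and Acap1, a GTPase-activating protein of ARF6, had -1.01 with overlapping lines. Ifitm3, an interferon-induced membrane protein, had -0.89, -0.93, -1.05 and -1.05 in the 4 pairs, with a mean of -0.98 (SE 0.06, limma adjusted p = 0.0216), although WT 7 at 12.77 lay below 3 of the DKO lines. In 11 of the 12 largest falls the lines of the groups did not overlap.

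Falls were found for 4 and rises for 3 of the 28 neural genes tested, beside 1.72% and 2.93% of all genes, with a median of -0.12 against 0.02 for all genes. Hesx1, a homeobox repressor of the anterior brain, had levels of 9.87, 9.75, 9.30 and 9.61 in WT 6, 92, 7 and 94 and of 8.77, 7.69, 8.21 and 8.06 in DKO 51, 61, 60 and 59. All DKO lines lay below the WT lines, with a mean ratio of -1.45 (SE 0.18, limma adjusted p = 0.0273). Celsr3, an atypical cadherin of axon guidance, had -1.26, Sox11, a transcription factor of neural precursors, -1.02, and Tubb3, a neuronal tubulin, -0.62. The 3 that rose were the transcription factors Pax2, Six6 and Neurog2, which were above background on no WT array and entered the test only through their DKO signal. Six6 was at least 1.66-fold and Neurog2 at least 1.44-fold higher. Pax2 was measured in 3 of 4 pairs (pair 60/7 is missing), and its fitted ratio of 1.27 became 3.14 with the scanner's log ratios, so its size is not fixed by these data. Its other probes gave 0.05 and -0.17. Over the neural genes above background on all 6 arrays the median was -0.27.

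Among genes of cytosine oxidation and base excision, 3 of 26 fell and 0 rose, beside 1.72% and 2.93% of all genes. Beside the targeted Tet1 and Tet2 this was Apex1, the endonuclease that cuts abasic sites, at -0.48 (SE 0.07, limma adjusted p = 0.0305). The probe of Apex1 (chromosome 14, from 51546483, mm9) lies close to those of Pnp (from 51571344) and Pnp2 (from 51584365), which also fell. The part of this position in the fall of Apex1 was not tested. Where arrays were only centred on their median, Apex1 had -0.03 and did not pass (limma adjusted p = 0.721). Nor did it pass with the scanner's log ratios, at -0.39 (limma adjusted p = 0.0772). None of the 9 glycosylases and deaminases passed, and Tdg, the glycosylase that removes the oxidised bases, had 0.17. Among genes of cytosine methylation and its readers, 1 of 24 fell, beside 1.72% of all genes. This was Uhrf1, which brings the maintenance methyltransferase to replicating DNA. Uhrf1 had -0.40, -0.42, -0.41 and -0.38 in the 4 pairs (SE 0.05, limma adjusted p = 0.0292), and -0.11 at its other probe. The methyltransferases Dnmt1, Dnmt3a and Dnmt3b had -0.21, -0.21 and -0.14 and did not pass.

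Of 45 DNA replication genes 4 fell and 0 rose, beside 1.72% and 2.93% of all genes. Pcna, the sliding clamp of the replication fork, had -0.52 (SE 0.07, limma adjusted p = 0.0279). Chaf1b, a chromatin assembly factor, had -0.44, Ccne1, the cyclin of S-phase entry, -0.41, and Rfc1, the large subunit of the clamp loader, -0.37. None of the 18 licensing genes passed, and the list's median was -0.06. Uhrf1 and these 4 genes had positive mean ratios of 0.12 to 0.17 where arrays were only centred on their median, a scaling that moved the median of all genes to 0.23. With the scanner's log ratios Pcna, Chaf1b, Ccne1, Rfc1 and Uhrf1 did not pass (limma adjusted p = 0.0912, 0.0854, 0.147, 0.113 and 0.102). Ccne1 and Rfc1 also did not pass with normexp fitted on all spots (limma adjusted p = 0.0552 and 0.0578).

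Polycomb proteins keep genes silent and trithorax proteins oppose them. Of 52 Polycomb and trithorax genes, 4 rose and 1 fell, beside 2.93% and 1.72% of all genes. Among the rises, Cbx2, a subunit of Polycomb repressive complex 1, had ratios of 0.92, 0.67, 0.76 and 0.55 in pairs 51/6, 61/92, 60/7 and 59/94, and every DKO line lay above every WT line. Its mean ratio was 0.73 (SE 0.08, limma adjusted p = 0.0218). Kdm2b, which recruits a variant of that complex to CpG islands, rose by 0.39, and Kdm6b, a histone H3 lysine demethylase, by 0.44. Sin3a, a corepressor scaffold, fell to -0.46. None of the 11 subunits and partners of Polycomb repressive complex 2 passed.

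Pluripotency genes passed in 1 of 33 cases, beside 4.65% of all genes. This was Spp1, a secreted phosphoprotein, at -0.41, which turned to 0.10 where arrays were only centred on their median, and the median over the list was -0.02. Pou5f1 had 0.06, Sox2 -0.02, Nanog -0.28 and Esrrb -0.21. In signalling, BMP genes rose in 3 of 21 cases and fell in 0, beside 2.93% and 1.72% of all genes: Bmpr1a, a type I receptor, by 0.62 (SE 0.06, limma adjusted p = 0.0218), Smad6, an inhibitor, by 0.61, and Bmp8b, a ligand, by 0.58. Of 29 FGF genes Fgfr3, a receptor, rose by 0.46, with 0.14 at its other tested probe, and did not pass in the authors' value table (0.27, limma adjusted p = 0.078). Of 21 Nodal and Lefty genes and 32 Wnt genes none passed by limma, and the members with the smallest p were Smad3, a signal transducer, at 0.35 and Lrp6, a Wnt coreceptor, at -0.50.

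The counts of the lineage lists are given beside the 4.65% of all genes that passed. Eomes, a T-box factor of trophoblast and primitive streak, rose by 0.89 (SE 0.15, limma adjusted p = 0.0456) and was the only gene to pass of 29 trophectoderm and 16 streak and mesoderm genes. Of 18 primed epiblast genes only Sall2 passed, and the list's median was -0.51 in pair 51/6 and 0.79 in pair 60/7. Of 24 primitive endoderm genes none passed, and Apoe had the smallest p at -0.53. Of 43 epithelial genes 7 passed, beside 4.65% of all genes. Dsc3, Krt6b, Krt78 and the tight junction scaffold Tjp1 (0.35) rose, and Upk3bl, Krtdap and the tight junction scaffold Tjp3 (-0.82) fell. Dsc3, Krt6b and Krt78 were above background on no WT array and entered the test only through DKO, and a second probe of each, at -0.07, 0.08 and -0.19, was not above background on any WT array. Of 34 feeder fibroblast markers 1 passed, S100a6, a calcium-binding protein, at -0.66, while the list's median was 0.67 in pair 60/7 and -0.44 in pair 61/92.

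The X-linked Xlr, Rhox and Mage genes had the highest median of the lists, 0.44, with 1 of 19 past the threshold, beside 4.65% of all genes. Xlr4b had ratios of 2.18, 3.18, 3.19 and 1.09, with a mean of 2.41 (SE 0.38, limma adjusted p = 0.041). It was above background on 3 of 6 WT arrays, and with the scanner's log ratios its value was 3.47 and did not pass (limma adjusted p = 0.0779). Its WT lines were spread from 6.70 in WT 6 to 10.83 in WT 94 and overlapped the DKO lines. Its relatives Xlr3b and Xlr4a had 2.78 and 2.15 and did not pass (limma adjusted p = 0.0574 and 0.0509), and these near-identical copies may share signal. Of 45 imprinted genes none passed, and Nnat had the smallest p at -0.99 (limma adjusted p = 0.052).

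The metabolic and stress lists are likewise set beside the 4.65% of all genes that passed. In purine metabolism Nt5c2, a nucleotidase, rose by 0.55 beside the falls of Pnp and Pnp2, 1 and 2 of 22. In the list of serine, folate and methyl-group metabolism Gcat, which breaks down threonine, had -0.74 (SE 0.10, limma adjusted p = 0.0285) and was among the genes that passed of 17. Of 23 glycolysis genes Ldhb fell and Gapdh was higher by 0.33, but the tested Gapdh probe is placed on chromosome 8 and the gene on chromosome 6, and its other probes ranged from -0.27 to 0.25. Of 35 chaperones Hspd1, the mitochondrial chaperonin, rose by 0.60. Hspd1 (mean level 16.03) and Gapdh (17.96) are among the 69 bright genes that rose, where the part of the dye was not tested. Neither Hspd1 nor Gapdh passed with the scanner's log ratios (limma adjusted p = 0.103 and 0.151) or with normexp fitted on all spots (0.0539 and 0.0585). Of 30 interferon response genes, those that passed included Sp110, which rose, and Ifitm3, which fell, and Sp110 was also the only one to pass of 17 genes of the two-cell-like state. Of 31 respiratory chain genes, 27 p53 targets, 19 Hox genes and 16 blood and endothelial markers none passed, the smallest p being those of Ndufa4 (-0.28), Sesn1 (0.67), Hoxa7 (-0.14) and Cd68 (-0.41). Ube1y1, named as a Y-linked gene in the files, passed at 0.58 with like levels in lines of both sexes, and its other probe had -0.02. In all, 52 of the 849 listed genes tested passed (6.12%, against 4.65% of all genes).

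**Figure D5:**
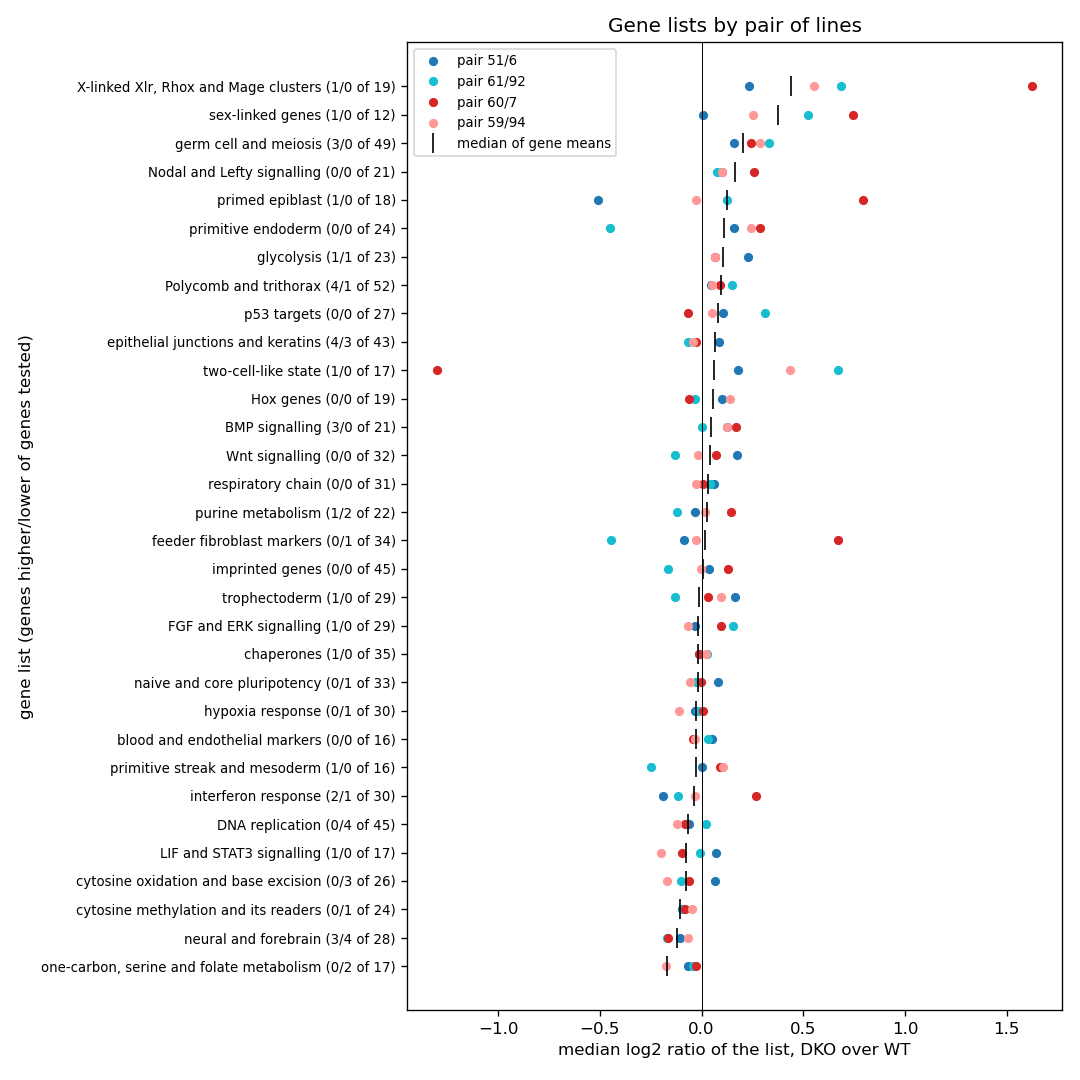
Median log2 ratio of each of the 32 gene lists in the 4 pairs (coloured points) and over the gene means (black), with the numbers of genes higher and lower of those tested beside each name. The points of the germ cell list all lie between 0.16 and 0.33, while the two-cell-like, primed epiblast and feeder lists are spread to both sides of 0.

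Some genes differed strongly within pairs and not in a common direction. Cyct, a testis cytochrome c, had ratios of -4.25, 1.37, 2.53 and -2.64 in pairs 51/6, 61/92, 60/7 and 59/94. 5830417I10Rik had 3.14, -3.27, -2.91 and -2.83. Nod1, a sensor of bacterial peptides, had 0.10, 0.12, -4.12 and 1.91, and Aass, an enzyme of lysine breakdown, had -1.11, 2.97, -2.52 and 1.07. Gm9 and AA467197 varied as widely, and none of the 6 passed. The levels of Cyct ran from 10.19 to 13.03 in the WT lines and from 8.77 to 12.72 in the DKO lines, so lines of either genotype differed among themselves.

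The called genes lay on all chromosomes but the mitochondrial one. Among the autosomes and the X chromosome the share called ran from 2.47% of 1052 genes on chromosome 8 and 2.63% on the X chromosome to 5.79% of 1573 genes on chromosome 2. On chromosome 1, 37 genes rose and 3 fell, and the median ratio of its 1122 genes was 0.25 in pair 51/6 and 0.01 to 0.04 in the other pairs. On chromosome 8 the median was -0.24 in pair 60/7 and 0.10 in pair 61/92. On chromosome 7, 37 rose and 51 fell. The part of such chromosome-wide shifts of single pairs in the calls was not tested. Some named genes lay close together: Tesc and Hrk on chromosome 5, Apex1, Pnp and Pnp2 on chromosome 14, and Rftn1 and Dazl on chromosome 17. On chromosome 19, As3mt, which fell, lay near Nt5c2, which rose. Such neighbours need not be independent changes, and this was not tested.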

How the data were processed

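RNA of 8 lines was measured on 6 two-colour Agilent arrays, and that of T2KO 16 and T1KO 65 on 2 more. Each labelling started from 200 ng of RNA. Per the file headers, the deposited scanner files hold mean and local background intensity per spot and channel, read by Feature Extraction 10.1.1.1, and the log10 ratio of processed intensity. The authors' value table (31595 probes, 31539 matched) lies near the log2 scale of Cy5 over Cy3, with column medians near 0 (0.00178, 0.00341 and 0.00544 for the male arrays); how it was normalized and centred is not stated in the labels or headers.

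From the mean and background intensities, normexp (offset 50, fitted without spots below local background), loess within arrays and Aquantile for levels were run in limma 3.58.1 on R 4.3.3; control spots and outlier spots were left out. Tables and plots used Python 3.11.15, pandas 2.3.3 and matplotlib 3.10.9. Of 39429 probes, 26581 were named through RefSeq (GRCm38.p6), the others as in the files; probe positions are mm9. A probe was tested if its channel was above background, by the scanner's own flag, throughout 1 or more groups of genotype and sex (25595 probes), and the brightest represents its gene. Repeat arrays were averaged, and the 4 pair ratios were tested against 0 with lmFit and eBayes (two-sided, Benjamini-Hochberg at 0.05). The p-values reflect how the pairs vary, and the number of arrays limits precision. The script was tested on simulated data.

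The comparison, its gene lists and the normexp setting were chosen with earlier results of these data known. Named genes are the Tet genes, the 12 largest rises and falls above background on all arrays and of 1 sign, the 6 largest rises from background, the 8 smallest p, called list members (or the smallest p of a list with none) and the 6 largest SDs; names that are only accessions were passed over. Other listed genes, markers and relatives of named genes (Ddx3y, Pou5f1, Sox2, Nanog, Esrrb, Tdg, Dnmt1, Dnmt3a, Dnmt3b, Mael, Ddx4, Xlr3b, Xlr4a) were named after their values were seen. A comparison of promoter CpG content over all called genes is not reported, since only 60.0% of tested genes had a promoter in the table, under the 80% set for such checks. Some genes that these rules select are not reported here.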

Additional observations from a re-analysis of the deposited data

Results flagged for a closer look

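In 6 of 117 values with 4 pairs examined, 1 pair lay far from the other 3, which chance gives in about 1 of 20. Tet2 was at -1.39 in pair 61/92, where the other pairs had -2.28 to -2.37. 5830417I10Rik was at 3.14 in pair 51/6 and between -3.27 and -2.83 in the others. Hoxa7 was at -0.055 in pair 61/92 and Ndufa4 at -0.14 in pair 60/7, and neither gene passed the test over the 4 pairs. The median of the Nodal and Lefty list was 0.26 in pair 60/7, and that of the glycolysis list 0.23 in pair 51/6.

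The list medians of 2 lists had opposite signs in the male and the female pairs, a difference that was not tested. The female minus male difference was 0.16 for purine metabolism and -0.079 for blood and endothelial markers. Sex and slide cannot be told apart here.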

How the results depend on the processing

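No paired analysis was possible because the replicate number in the labels marks repeat arrays of the same 2 lines, which were averaged. That number gives no block beyond the array's own pairing of a DKO and a WT line, which the tested ratios already hold. The counts of genes higher and lower were 599 and 351. They were 204 and 160 with normexp fitted on all spots, 7452 and 566 with median centring (92.9% higher against 63.1%), 510 and 167 with the scanner's log ratios (75.3% higher), 341 and 191 in the authors' value table, 264 and 188 among genes above background on all 6 arrays, 683 and 506 with no filter, and 754 and 692 with all 6 arrays and the pair as a random block (52.1% higher). They were 0 and 0 with the slide as a block, 0 and 0 with a variance prior following intensity, and from 0 to 0 with 1 pair left out. Of the 70 named genes that passed, 6 changed sign, all under median centring, where the median over all genes became 0.23: Ccne1 0.16, Chaf1b 0.14, Pcna 0.15, Rfc1 0.12, Spp1 0.10 and Uhrf1 0.17. A further 6 kept their sign there but did not pass in limma, among them Apex1 (-0.03), S100a6 (-0.03), Sin3a (-0.12), Gcat (-0.30) and Ldhb (-0.52). Of the named genes that did not pass in the main fit, Apoe (0.15) and Ndufa4 (0.20) changed sign under median centring and Tet3 with scanner ratios (-0.056). AA467197 did with normexp on all spots (-0.15), no background subtraction (-0.00104), scanner ratios (-0.063), the authors' table (-0.00387) and without pairs 61/92 (-0.41) or 59/94 (-0.80); leaving out 1 pair gave -0.80 to 0.88. Aass did without 61/92 (-0.85, the lowest, up to 0.98) or 59/94 (-0.22), and Cyct without 51/6 (0.42, the highest, down to -1.84). Without 60/7, Gm9 (-0.79, the lowest, up to 1.101) and Nod1 (0.71, the highest, down to -1.30) did. The cause was not tested.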
